A study of Mus musculus with 9 samples.

Results

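The genes described here are 43 interferon response genes, which are genes that cells switch on when they meet interferon, followed across mouse small intestinal organoids with TGF-beta signalling raised, blocked or left alone. They were chosen by gene symbol, and the brightest probe set of each symbol stood for the gene. Of the 43, 41 had a probe set of their own among 18193 such genes on the array, and 36 were bright enough to test among 12941 genes tested. Expression of Isg15 and Ifi44 was not analysed here, since no probe set was named for either alone. Nlrc5, Zbp1, Mx2, Gbp2 and Gbp3 stayed under the filter level.

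Organoids are closed epithelial structures grown in culture from intestinal crypts, with stem cells and their differentiated progeny. RNA from 9 cultures was read on 9 Affymetrix Mouse Genome 430 2.0 arrays, which report 1 signal per set of short probes placed near the 3 prime end of a transcript. The groups were 3 cultures given the ligand TGF-beta1 at 0.04 ng/mL, 3 given an inhibitor of TGF-beta receptors 1 and 2 at 20 uM, and 3 given nothing. Treatment ran from day 1, all cultures were grown for 6 days, and no mouse strain, genotype, compound name or vehicle is given in the sources used here. Whether the replicates came from separate animals or preparations is not stated, and the spread behind each p-value may therefore be technical.

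Interferons reach a cell through surface receptors whose kinases, Jak1, Jak2 and Tyk2, phosphorylate STAT proteins. Type I and type III interferons bring a complex that holds Stat2 and Irf9 onto the interferon-stimulated response element (ISRE), and the response to type II interferon works through the gamma-activated site (GAS). Type III interferon acts mainly on epithelia, the gut lining included, and the induced genes encode sensors of viral RNA, enzymes that block viral replication, and regulators of the response itself.

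The promoters of 6 members are printed because 3 of them, the Ifit genes, are neighbours on chromosome 19 whose signals went different ways, because Rsad2 and Cmpk2 are direct neighbours on chromosome 12, and because Oas1a was the 1 member that was higher with the inhibitor and lower with the ligand. The sequences are RefSeq's (GRCm38.p6), 300 bases from 250 before to 50 after the start of each gene, 5′ to 3′ on the gene's strand. Capitals mark matches to the ISRE letters (GAAA, any 2 bases, GAAA) on either strand, except in the first Ifit2 promoter, where they mark a match to the GAS letters TTCNNNGAA.
Ifit1 promoter, chr19:34640639-34640938, plus strand: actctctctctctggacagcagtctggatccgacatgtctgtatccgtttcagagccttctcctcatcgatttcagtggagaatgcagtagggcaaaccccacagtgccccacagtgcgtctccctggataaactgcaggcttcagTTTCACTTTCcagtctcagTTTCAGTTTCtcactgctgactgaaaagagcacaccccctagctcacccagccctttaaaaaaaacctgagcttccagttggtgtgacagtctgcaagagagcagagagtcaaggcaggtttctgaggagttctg
Ifit3 promoter, chr19:34583279-34583578, plus strand: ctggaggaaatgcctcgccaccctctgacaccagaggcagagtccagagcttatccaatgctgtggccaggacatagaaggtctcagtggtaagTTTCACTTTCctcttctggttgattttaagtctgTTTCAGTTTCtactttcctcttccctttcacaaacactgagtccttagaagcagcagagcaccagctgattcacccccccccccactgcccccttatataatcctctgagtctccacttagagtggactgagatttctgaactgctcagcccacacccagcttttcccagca
Ifit2 first promoter, chr19:34550444-34550743, plus strand: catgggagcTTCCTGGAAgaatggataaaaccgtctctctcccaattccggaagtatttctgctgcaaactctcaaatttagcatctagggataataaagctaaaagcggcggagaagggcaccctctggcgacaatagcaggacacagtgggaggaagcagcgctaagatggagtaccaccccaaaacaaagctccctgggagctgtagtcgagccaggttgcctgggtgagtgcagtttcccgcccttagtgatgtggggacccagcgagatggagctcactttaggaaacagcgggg
Ifit2 second promoter, chr19:34550838-34551137, plus strand: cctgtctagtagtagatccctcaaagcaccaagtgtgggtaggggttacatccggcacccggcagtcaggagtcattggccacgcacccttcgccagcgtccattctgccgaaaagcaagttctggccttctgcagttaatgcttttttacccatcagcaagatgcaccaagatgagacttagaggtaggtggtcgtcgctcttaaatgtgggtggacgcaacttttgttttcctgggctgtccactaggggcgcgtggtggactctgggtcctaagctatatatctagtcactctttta
Rsad2 promoter, chr12:26456403-26456702, minus strand: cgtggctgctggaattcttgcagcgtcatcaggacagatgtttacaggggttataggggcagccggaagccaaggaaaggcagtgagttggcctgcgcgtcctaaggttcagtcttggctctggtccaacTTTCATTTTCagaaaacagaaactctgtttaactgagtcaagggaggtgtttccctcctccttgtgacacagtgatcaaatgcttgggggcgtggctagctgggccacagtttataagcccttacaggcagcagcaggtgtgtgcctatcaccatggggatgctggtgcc
Cmpk2 promoter, chr12:26468965-26469264, plus strand: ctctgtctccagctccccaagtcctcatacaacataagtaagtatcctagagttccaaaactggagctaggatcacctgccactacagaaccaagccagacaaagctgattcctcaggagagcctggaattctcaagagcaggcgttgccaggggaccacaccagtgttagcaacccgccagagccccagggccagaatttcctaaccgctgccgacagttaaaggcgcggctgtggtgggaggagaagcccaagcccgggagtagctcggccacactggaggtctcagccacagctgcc
Oas1a promoter, chr5:120907476-120907775, minus strand: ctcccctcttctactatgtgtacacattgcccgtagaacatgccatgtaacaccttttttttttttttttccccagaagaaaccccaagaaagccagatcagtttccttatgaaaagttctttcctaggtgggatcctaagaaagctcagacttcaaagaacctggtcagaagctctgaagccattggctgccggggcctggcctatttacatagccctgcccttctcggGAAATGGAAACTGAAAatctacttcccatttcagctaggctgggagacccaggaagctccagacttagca

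The table of promoters held 32 of the 43 members. An ISRE match stood in at least 1 promoter of 12 of these 32 (37.5%), against 3.99% of 27025 genes with a promoter in the table. A GAS match stood in 9 of the 32 (28.1%), against 9.55% of all genes, and the letters of both motifs overlapped in 1 member's promoter. Ifit1 had ISRE matches 104 and 85 bases before its start, Ifit3 had them 156 and 122 bases before, and Rsad2 had 1 match 120 bases before. The pair in Oas1a, 20 and 14 bases before the start, overlaps, and Isg15 had 3 matches, 78, 72 and 66 bases before. An ISRE match stood in 7 of 17 members with a promoter that rose with the inhibitor (41.2%) and in 2 of 11 tested members that did not (18.2%), against 3.5% of all tested genes with a promoter. The GAS split ran the other way, with a match in 3 of 17 members that rose (17.6%) and in 6 of 11 that did not (54.5%), against 8.21%. No exact ISRE match was found in the windows of Ifit2, Cmpk2, Irf7, Irf9, Oasl1 or Oasl2, which says only that these letters are not in these windows.

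With the inhibitor, 23 of the 36 members tested rose against untreated organoids and 1, Ifit2, fell. Of all 12941 genes tested, 21.1% rose and 23.9% fell in that comparison, at an adjusted p under 0.05 in limma (Benjamini-Hochberg over all genes). The median member stood at 0.56 on the log2(signal + 16) scale used for every change given here, and the median gene stood at −0.01. The inhibitor and untreated arrays did not overlap, with the inhibitor higher, in 23 members, and 26.6% of all genes were apart in that way.

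The ligand gave another picture: 9 members rose against untreated organoids and 1, Oas1a, fell, where 14.7% of all genes rose and 9.28% fell. The median member stood at 0.03 and the median gene at 0.05. The lower count depended on single arrays, at 0 without ligand replicate 2 or untreated replicate 1 or 2, at 2 without untreated replicate 3 and at 3 without ligand replicate 3, and it was 4 when arrays were centred on their medians. Setting ligand directly against inhibitor, 4 members were higher with the ligand (Irf1, Ifit2, Cmpk2 and Psmb8) and 23 were lower, against 32.4% and 22.9% of all genes. The median member stood at −0.53 there and the median gene at 0.07. Of the calls over all genes, 61.3% were higher when the ligand was set against untreated (36.6% with median centring) and 58.6% when it was set against the inhibitor (41.8%). Both comparisons with untreated use the same 3 untreated arrays, so their values are set side by side and their overlap is not tested.

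Side by side, 6 members were higher in both comparisons with untreated (Adar, Rsad2, Rtp4, Parp12, Tapbp and Ifi27), and 16 were higher with the inhibitor and not called with the ligand. Irf1 and Cmpk2 were called with the ligand alone, Irf1 gaining a call with the inhibitor in 3 of 18 alternatives. Oas1a was higher with the inhibitor and lower with the ligand, and Ifit2 was the reverse. Neither treatment gave a call against untreated in the other 10. Of all genes, 3.2% were higher in both comparisons, 13.5% with the inhibitor alone, 6.44% with the ligand alone, 4.34% higher with the inhibitor and lower with the ligand, 5.07% the reverse, and 45.3% were called in neither. Of the 36 members, 26 were above the filter level on all 9 arrays, and among these 18 rose and 0 fell with the inhibitor, 7 rose and 1 fell with the ligand. The share of all genes under that same condition was not counted. With a filter at the 60th percentile, 18 of 25 members rose and 1 fell with the inhibitor, against 25.6% and 29.2% of all genes. With the ligand 8 of these 25 rose and 1 fell, against 17.2% and 12%.

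**Figure D1:**
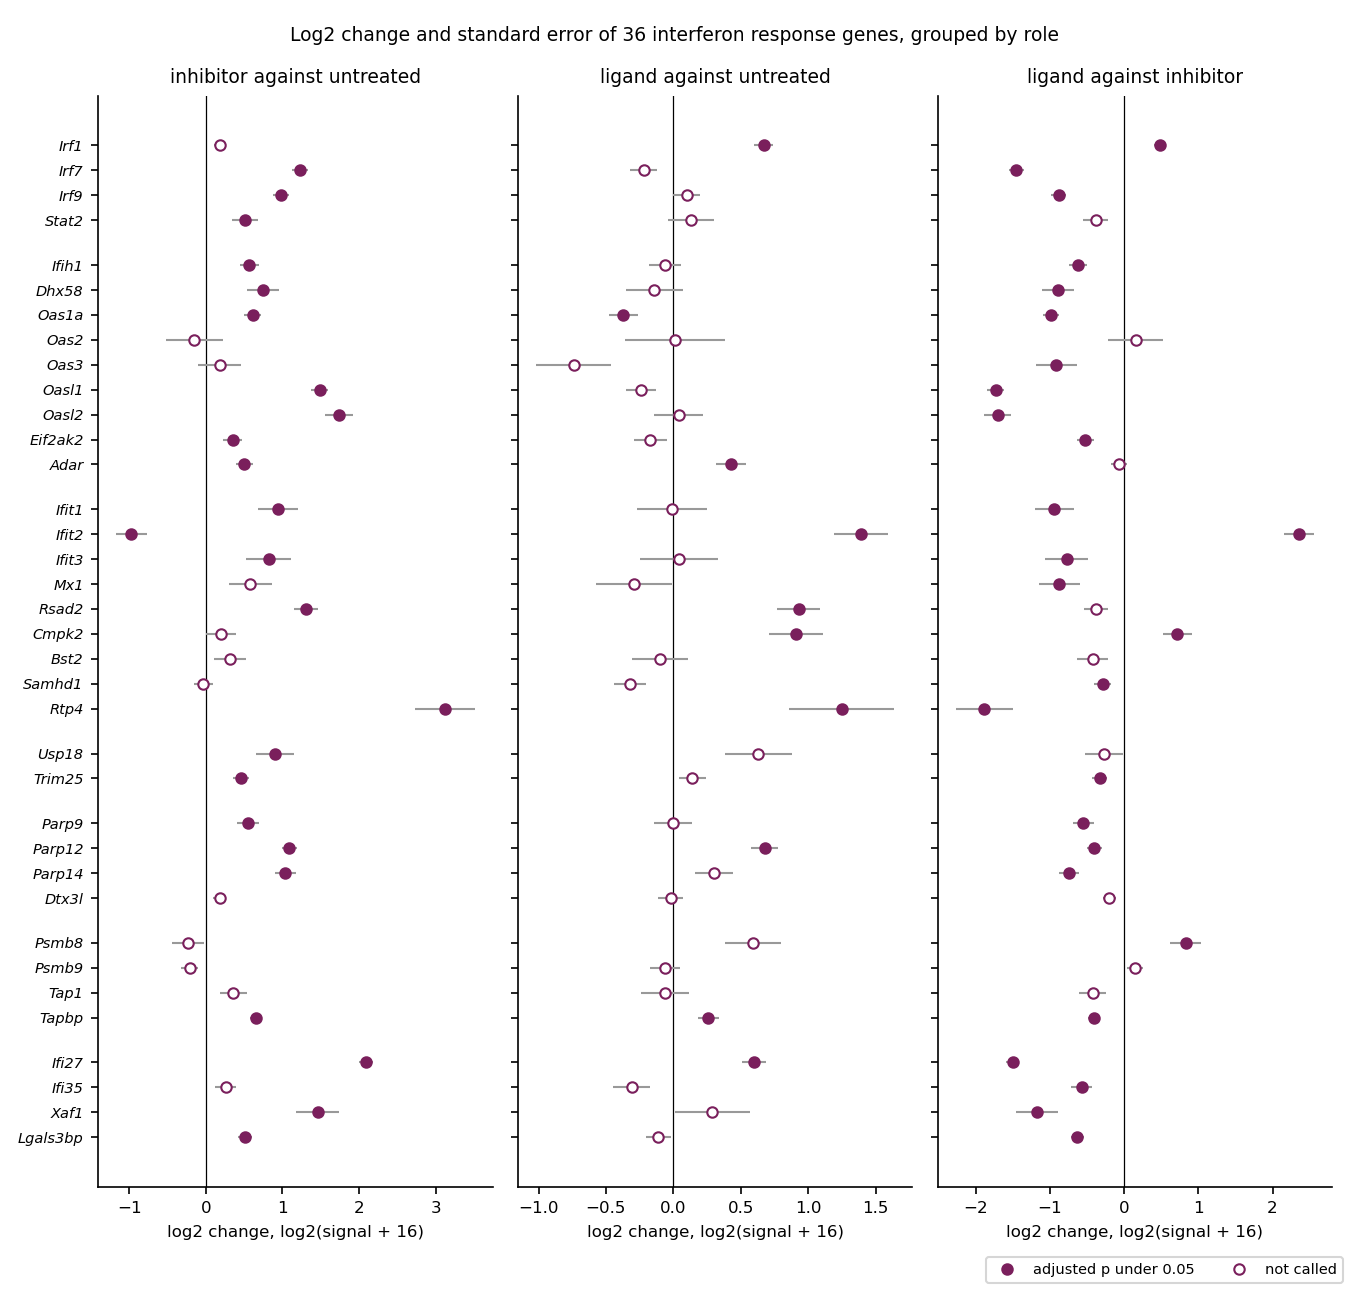
Log2 change with its standard error (horizontal axes, log2(signal + 16)) of the 36 members tested, grouped by role from transcription factors at the top, in the 3 comparisons. Filled points have an adjusted p under 0.05: 23 lie to the right and 1 to the left for the inhibitor, 9 to the right and 1 to the left for the ligand against untreated.

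**Figure D2:**
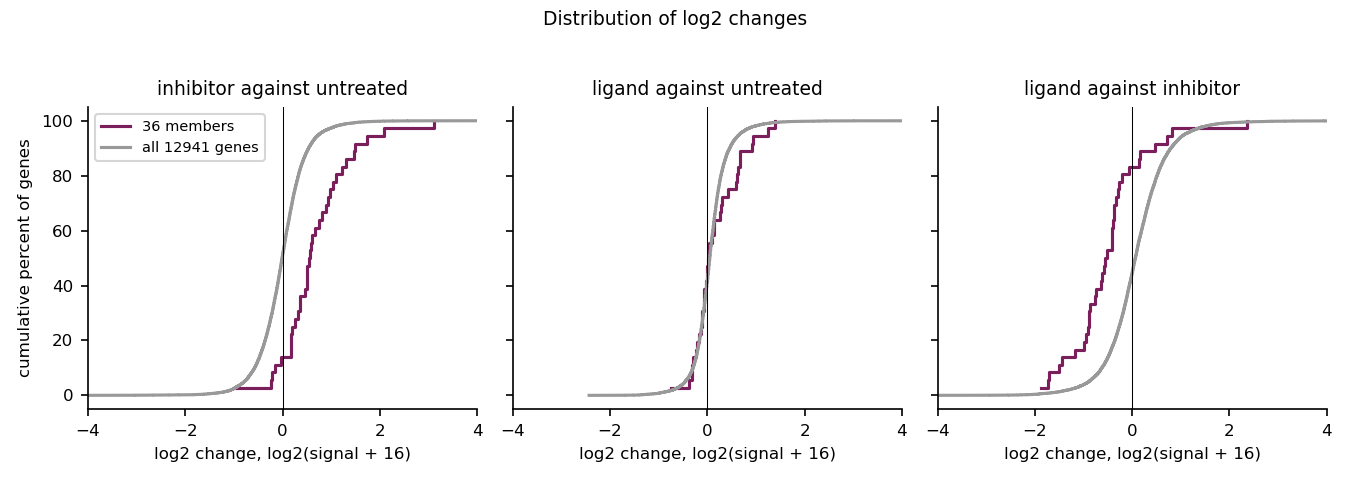
Cumulative percent of genes (vertical axis) below each log2 change (horizontal axis, log2(signal + 16)) for the 36 members and all 12941 genes tested, with the most extreme genes outside the axes. The member line lies to the right of the line of all genes for inhibitor against untreated (medians 0.56 and −0.01), close to it for ligand against untreated (0.03 and 0.05) and mostly to its left for ligand against inhibitor (−0.53 and 0.07).

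Markers of epithelial cell types moved with treatment as well, beside 21.1% of all genes higher and 23.9% lower with the inhibitor and 14.7% higher and 9.28% lower with the ligand. Markers of absorptive enterocytes rose in 18 of 30 with the inhibitor and fell in 1, and with the ligand rose in 2 and fell in 16; their summed signal was 95418 to 104558 in ligand arrays, 155385 to 180714 in inhibitor arrays and 127119 to 139825 in untreated arrays. Crypt base stem cell markers rose in 2 and fell in 13 of 16 with the inhibitor, and rose in 12 and fell in 0 with the ligand. Dividing cell markers fell in 17 of 18 with the inhibitor, and rose in 4 and fell in 4 with the ligand. With the inhibitor 3 of 7 Paneth, 5 of 9 goblet and 3 of 7 tuft cell markers fell and none rose, and of 10 enteroendocrine markers 4 rose and 2 fell. With the ligand 2 Paneth markers rose and 1 fell, 1 goblet marker rose and 2 fell, and 4 tuft and 7 enteroendocrine markers rose with none falling. The part of these shifts in the members' changes was not tested, and in RNA of whole cultures fewer cells of a type and less RNA per cell cannot be told apart.

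Genes listed as markers of cells outside the epithelium were also read. Of 24 leukocyte markers 11 were testable. With the inhibitor 3 were higher and 3 lower (27.3% each, against 21.1% and 23.9% of all genes). With the ligand 1 was higher and 0 lower (9.09% and 0%, against 14.7% and 9.28%). The summed signal of the leukocyte markers was 2281 to 3302 in ligand arrays, 1437 to 1688 in inhibitor arrays and 2028 to 2243 in untreated arrays. The brightest of them were the lysozyme gene Lyz2, at 1644 with the ligand, 746 with the inhibitor and 1212 untreated, and Kit, at 528, 136 and 416 in the same order. Lyz2 and Kit made up most of the sum in each group, so its fall with the inhibitor need not hold for the other markers. Which cells the Lyz2 and Kit signals came from was not tested. Ptprc, the pan-leukocyte marker CD45, averaged 16.4 ± 7.87 with the ligand, 11.5 ± 4.62 with the inhibitor and 17.3 ± 6.09 untreated (SD, n = 3 each), under the filter level, and so was the T-cell gene Cd3e. The 3 that rose, singled out after their values were seen, were Siglech and the macrophage genes Csf1r and Cd68. Siglech (means 28.4 with the ligand, 34.5 with the inhibitor and 16.8 untreated) lay near the filter level. Csf1r averaged 57.5 with the ligand, 140.3 with the inhibitor and 66.2 untreated, and Cd68 60.6, 112 and 64.4. As many leukocyte markers fell, and Lyz2 and Kit averaged lower with the inhibitor than untreated. Fibroblast markers (6 of 13 testable, summed 528 to 652, 346 to 426 and 449 to 484) and endothelial markers (3 of 9 testable, summed 528 to 600.4, 314 to 421 and 361 to 381, both in the order ligand, inhibitor, untreated) each had 1 gene lower with the inhibitor and 1 higher with the ligand. In each list 1 gene is 16.7% and 33.3% of those testable. Of all genes, 23.9% were lower with the inhibitor and 14.7% higher with the ligand. The epithelial gene Epcam averaged 11488 with the ligand, 10854 with the inhibitor and 11225 untreated. Control probes give a reading of RNA quality. The log2 ratio of 3 prime to 5 prime actin probes was 0.468 ± 0.0985 with the ligand, 0.211 ± 0.0299 with the inhibitor and 0.411 ± 0.0352 untreated (SD, n = 3 each). The exact permutation p was 0.1, the smallest that 3 against 3 allows, for inhibitor against untreated and for ligand against inhibitor. For ligand against untreated it was 0.6. For Gapdh the ratio was −0.267, −0.278 and −0.265 in the same order (exact permutation p = 0.9 where the ligand was set against untreated, 0.3 for the inhibitor against untreated and 0.6 between the treatments). None of these was tested for its part in the members' changes.

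Of the transcription factors, Irf7 and Irf9 rose with the inhibitor and Irf1 with the ligand. Irf7, which amplifies type I interferon production, had signals of 151, 169.8 and 182 in ligand arrays, 457, 469 and 530 in inhibitor arrays and 185, 209 and 199 in untreated arrays. Each inhibitor array was above every other array. The change was 1.23 ± 0.10 (SE) for inhibitor against untreated, a fold of 2.34 (adjusted p = 7.6e-07), and −0.22 ± 0.10 for ligand against untreated (adjusted p = 0.133). Ligand against inhibitor was −1.45 ± 0.10 (adjusted p = 6.9e-08).

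Irf9, the DNA-binding partner of Stat2, had 156, 169.5 and 158 with the ligand, 283, 334 and 319 with the inhibitor and 153, 138 and 159 untreated. Only the inhibitor arrays stood apart, at 0.98 ± 0.10 against untreated (fold 1.98, adjusted p = 5.5e-06). Stat2 had 92.4, 81.4 and 54.0 with the ligand, 105, 88.1 and 112 with the inhibitor and 64.2, 71.9 and 63.3 untreated. The ligand arrays overlapped both other groups, and the rise with the inhibitor was 0.51 ± 0.17 (adjusted p = 0.0258). That call was lost in 5 of 17 alternatives, among them leaving out inhibitor replicate 1 or 3 or untreated replicate 1 or 3, with adjusted p from 0.01 to 0.0931.

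Irf1, a factor induced by interferon gamma and by other inflammatory signals, behaved differently. Its signals were 471, 486 and 507 with the ligand, 349.9, 336 and 347 with the inhibitor and 298, 307 and 301 untreated, so the groups did not overlap and the ligand arrays were highest. Ligand against untreated was 0.67 ± 0.07 (fold 1.59, adjusted p = 3.4e-05), and ligand against inhibitor was 0.48 ± 0.07 (adjusted p = 9.2e-05). Inhibitor against untreated was 0.18 ± 0.07, with an adjusted p of 0.0641, and was called with quantile normalization, with the mean of probe sets and with no intensity trend (adjusted p 0.0241 to 0.14 over 18 alternatives). Nlrc5, which drives MHC class I genes, lay under the filter level in these arrays and was not tested, with 17.4, 15.2 and 20.9 with the ligand, 14.8, 16.7 and 17.8 with the inhibitor and 20.5, 15.4 and 18.8 untreated.

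Sensors and enzymes of double-stranded RNA rose in 7 of the 9 testable members with the inhibitor, beside 21.1% of all genes. Ifih1 (MDA5), a cytoplasmic sensor of long double-stranded RNA, had 605, 516 and 608 with the ligand, 754, 1030 and 920.3 with the inhibitor and 681, 565 and 556 untreated. Every inhibitor array was above the untreated ones, and the change was 0.57 ± 0.12 (adjusted p = 0.00129). Dhx58 (LGP2), a relative of Ifih1, had 29.3, 19.5 and 20.6 with the ligand, 41.9, 63.5 and 65.5 with the inhibitor and 36.5, 21.4 and 24.3 untreated. The signals sit close to the filter level of 25.9 to 32.0, and the rise with the inhibitor was 0.75 ± 0.21 (adjusted p = 0.0114). Averaging its probe sets, or leaving out inhibitor replicate 3, ended that call, and adjusted p ran from 0.00721 to 0.129 over 17 alternatives.

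The oligoadenylate synthetases make the messenger that activates RNase L. Oas1a had 408, 348 and 368 with the ligand, 631, 856 and 796 with the inhibitor and 511, 484 and 469.7 untreated. The 3 groups did not overlap, with the ligand lowest and the inhibitor highest. Inhibitor against untreated was 0.61 ± 0.11 (adjusted p = 0.00036) and ligand against untreated was −0.37 ± 0.11 (adjusted p = 0.0212). The second call was lost without ligand replicate 2, or untreated replicate 1 or 2, with adjusted p from 0.00785 to 0.0771 over 18 alternatives. Oas3 was dim, at 11, 13.2 and 6.72 with the ligand, 30.6, 16.9 and 62.0 with the inhibitor and 26.4, 29.3 and 27.1 untreated. It was called only for ligand against inhibitor, at −0.91 ± 0.28 (adjusted p = 0.0135). Without inhibitor replicate 3 the value was −0.58 and not called (adjusted p 0.00243 to 0.0785 over 17 alternatives). Oas2 was called nowhere.

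The Oas-like genes gave larger changes. Oasl1, which restrains translation of Irf7 in mice, had 509.7, 486 and 642 with the ligand, 1963, 1814 and 1746 with the inhibitor and 618, 592 and 725 untreated. Inhibitor arrays were well above the rest, at 1.49 ± 0.11 against untreated (fold 2.82, adjusted p = 2.3e-07). Its neighbour on chromosome 5, Oasl2, had 42.1, 54.0 and 49.4 with the ligand, 151, 244 and 194 with the inhibitor and 42.4, 41.0 and 57.2 untreated. The change was 1.74 ± 0.18 with the inhibitor (fold 3.34, adjusted p = 4.9e-06) and 0.04 ± 0.18 with the ligand (adjusted p = 0.895).

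Eif2ak2 (PKR), which halts translation on double-stranded RNA, had 420.3, 365 and 348 with the ligand, 597, 565 and 483 with the inhibitor and 439.6, 357 and 491 untreated. One untreated array lay above the lowest inhibitor array, and the rise of 0.35 ± 0.12 (adjusted p = 0.0291) was lost in 5 of 18 alternatives, including without inhibitor replicate 1 or 2 or untreated replicate 2 (adjusted p 0.00814 to 0.141). Adar, which edits adenosine to inosine in double-stranded RNA, had 450.2, 400.2 and 531 with the ligand, 429.6, 505 and 513 with the inhibitor and 368, 308 and 336 untreated. Both treated groups were above untreated, at 0.43 ± 0.11 for the ligand (adjusted p = 0.0135) and 0.50 ± 0.11 for the inhibitor (adjusted p = 0.00249). The inhibitor call was lost when probe sets were averaged (adjusted p 0.00121 to 0.0738 over 18 alternatives) and the ligand call under median centring or without untreated replicate 2 (0.00703 to 0.0886).

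Among the antiviral effectors the Ifit genes, whose products bind viral RNA, did not move together. Ifit1 had 63.96, 69.9 and 78.3 with the ligand, 104, 211 and 153 with the inhibitor and 43.2, 72.5 and 109 untreated. One untreated array was above the lowest inhibitor array, and the rise was 0.94 ± 0.26 (adjusted p = 0.00936). Without inhibitor replicate 2 it was 0.71 and not called, and adjusted p ran from 0.00199 to 0.0515 over 18 alternatives. Ifit3 had 40.7, 26.0 and 39.4 with the ligand, 52.5, 137 and 46.4 with the inhibitor and 28.1, 33.8 and 38.7 untreated, a rise of 0.82 ± 0.29 with the inhibitor (adjusted p = 0.034). A single inhibitor array, replicate 2, stood far above the others. The call was lost in 5 of 17 alternatives, including without inhibitor replicate 2, where the value was 0.41, and without untreated replicate 1 or 2, with adjusted p from 0.0144 to 0.16.

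Ifit2, the neighbour of Ifit1 and Ifit3, went the other way. It had 181, 165 and 208 with the ligand, 23.4, 31.5 and 15.3 with the inhibitor and 53.3, 48.4 and 83.6 untreated. The 3 groups did not overlap, and 2 of the inhibitor arrays were under the filter level, so the size of the fall is uncertain. Inhibitor against untreated was −0.97 ± 0.20 (adjusted p = 0.0014), ligand against untreated 1.39 ± 0.20 (fold 2.62, adjusted p = 0.00025) and ligand against inhibitor 2.36 ± 0.20 (fold 5.15, adjusted p = 4.5e-07). Each of these 3 calls held under all 18 alternatives, but with offsets of 1 and 64 the sizes were −1.38 and −0.52 for the inhibitor, 1.60 and 0.99 for the ligand, and 2.98 and 1.51 for ligand against inhibitor. Over the 9 arrays only Irf1, Cmpk2 and Psmb8 correlated with Ifit2 above 0.5 (Pearson on log2 signals, at 0.75, 0.75 and 0.88), while Irf7 stood at −0.86. These arrays share their 3 treatment groups, which set the coefficients.

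**Figure D3:**
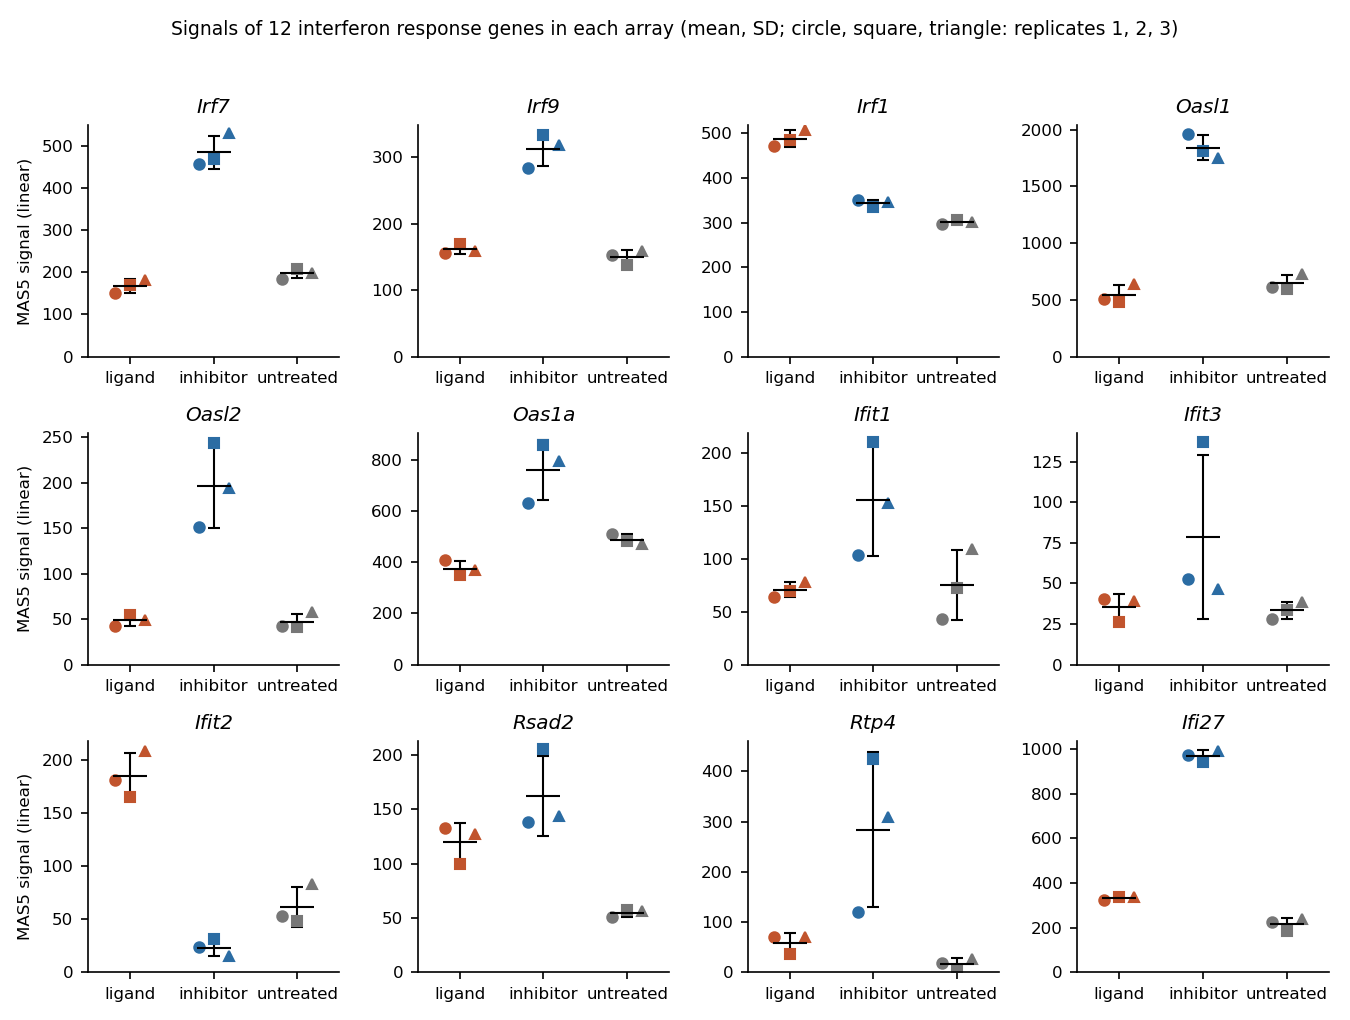
MAS5 signal (vertical axes, linear, from 0) of 12 members in each array, by treatment on the horizontal axes. Circles, squares and triangles are replicates 1, 2 and 3, long bars the mean and short bars the SD (n = 3). Ifit2 is highest in the ligand arrays (165 to 208) and lowest in the inhibitor arrays (15.3 to 31.5), while Oasl1, Irf7 and Ifi27 are highest in the inhibitor arrays.

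Rsad2 (viperin), which makes a chain-terminating nucleotide, rose with both treatments. Its signals were 133, 99.8 and 127 with the ligand, 138, 205 and 144 with the inhibitor and 50.5, 57.1 and 56.7 untreated. All treated arrays were above the untreated ones, at 0.93 ± 0.16 for the ligand (adjusted p = 0.0009) and 1.31 ± 0.16 for the inhibitor (adjusted p = 2.1e-05). Its neighbour Cmpk2, a nucleotide kinase of mitochondria, had 124, 118 and 84.5 with the ligand, 52.9, 81.0 and 48.2 with the inhibitor and 47.2, 42.5 and 61.2 untreated. Only the ligand arrays stood above the rest, at 0.91 ± 0.20 against untreated (adjusted p = 0.00447), and the inhibitor value was 0.20 ± 0.20 (adjusted p = 0.453). Thus, on their brightest probe sets, Rsad2 was called in both comparisons with untreated and Cmpk2 in 1. A second, dimmer Cmpk2 probe set was called nowhere, at 0.26 with the ligand (adjusted p = 0.541) and 0.08 with the inhibitor.

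Rtp4, which encodes an interferon-induced transporter-like protein, had 70.7, 36.7 and 69.6 with the ligand, 119, 424 and 309 with the inhibitor and 19.4, 3.0 and 27.6 untreated. All untreated arrays were under their filter levels, so the size of the change is uncertain. Inhibitor against untreated was 3.12 ± 0.39 (fold 8.7, adjusted p = 2.9e-05). The offset added to the signal sets its size, which was 4.24 with an offset of 1 and 2.01 with 64, called in both. The ligand value of 1.25 ± 0.39 (adjusted p = 0.0345) was lost in 9 of 18 alternatives, including without ligand replicate 1 or 3 or untreated replicate 1 or 2, with adjusted p from 0.0202 to 0.144. Mx1, a dynamin-like GTPase, had 23.4, 28.6 and 6.15 with the ligand, 44.6, 41.5 and 52.1 with the inhibitor and 40.1, 22.3 and 17.1 untreated. It was called only for ligand against inhibitor, at −0.87 ± 0.28 (adjusted p = 0.017), with −0.56 without ligand replicate 3 and −0.80 without inhibitor replicate 3, neither called (adjusted p 0.00321 to 0.0712 over 17 alternatives).

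Bst2 (tetherin), which holds budding virions at the cell surface, was called in no comparison as reported, and against the inhibitor gained a call with quantile normalization (−0.61) and median centring (−0.58). Samhd1, which depletes the nucleotides that viruses need, was lower with the ligand than with the inhibitor on its brightest probe set, at −0.29 ± 0.12 (adjusted p = 0.0473). It turned to 0.12 when its probe sets were averaged and was lost in 9 more of 18 alternatives, including without replicate 1 or 2 of either group (−0.21 to −0.26), with adjusted p from 0.00189 to 0.492. Other Samhd1 probe sets disagreed, with inhibitor values of −0.56, −1.19, 0.28 and 1.00 against −0.03 on the brightest.

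Of the 20 other probe sets that passed the filter, in 13 member genes, the inhibitor comparison gave the same call in 6, no call where the brightest had one in 8, a call where it had none in 6, and an opposite call in 0. For ligand against untreated these counts were 16, 4, 0 and 0. For ligand against inhibitor they were 9, 7 and 2, with an opposite call in 2, both of them Samhd1. Rsad2 had a second probe set at 1.25 with the inhibitor and 0.97 with the ligand, both called, and the third, dimmer one at 0.43 and 0.39, neither called (adjusted p = 0.126 and 0.242). Members of the Oas, Ifit and Gbp families resemble each other, and probe sets of near-identical transcripts may share target RNA.

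Usp18, which removes ISG15 from proteins and damps receptor signalling, had 24.4, 30.8 and 35.4 with the ligand, 26.4, 54.2 and 41.6 with the inhibitor and 14.7, 7.11 and 20.9 untreated. The untreated arrays were all the lowest and under the filter level. The rise with the inhibitor was 0.90 ± 0.25 (adjusted p = 0.00861), and the ligand value was 0.63 ± 0.25 (adjusted p = 0.0802). With offsets of 1 and 64 the inhibitor value was 1.51 and 0.42, called in both. Trim25, a ubiquitin ligase that acts on RIG-I, ranged from 1649 to 2137 with the ligand, 2143 to 2591 with the inhibitor and 1657 to 1849 untreated, a rise of 0.46 ± 0.10 with the inhibitor (adjusted p = 0.00205). Its ligand against inhibitor value of −0.33 ± 0.10 (adjusted p = 0.0142) was lost without ligand replicate 2 (−0.21) or inhibitor replicate 2 or 3 (−0.28 and −0.29), with adjusted p from 0.00034 to 0.0687 over 18 alternatives.

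Parp9, Parp12 and Parp14, of the ADP-ribosyltransferase family, rose with the inhibitor. Parp12 had 265, 256 and 279 with the ligand, 321, 412 and 346 with the inhibitor and 163, 152 and 165 untreated. The 3 groups did not overlap, at 0.68 ± 0.10 for ligand against untreated (adjusted p = 0.00036) and 1.09 ± 0.10 for inhibitor against untreated (adjusted p = 2.6e-06). Parp14 had 100.3, 106 and 116 with the ligand, 159.9, 219.7 and 194 with the inhibitor and 83.5, 75.8 and 94.8 untreated, and the inhibitor value was 1.04 ± 0.14 (adjusted p = 4e-05). Parp9 was higher by 0.55 ± 0.14 with the inhibitor (adjusted p = 0.00502). Dtx3l, the ubiquitin ligase partner of Parp9 and its neighbour on chromosome 16, was at 0.18 ± 0.09 (adjusted p = 0.142), and called at 0.28 with its probe sets averaged.

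In antigen processing 1 of the 4 members, Tapbp (tapasin), rose with the inhibitor, a share (25%) near the 21.1% of all genes. Tapbp ranged from 757 to 897 with the ligand, 1050 to 1100 with the inhibitor and 648 to 699.9 untreated, a change of 0.66 ± 0.08 with the inhibitor (adjusted p = 1.4e-05). Its smaller ligand value of 0.26 ± 0.08 (adjusted p = 0.025) was lost in 7 of 18 alternatives, including without ligand replicate 1 or untreated replicate 1 or 2 (adjusted p 0.013 to 0.314). Psmb8, an immunoproteasome subunit, had 74.4, 41.6 and 76.6 with the ligand, 25.6, 33.0 and 26.5 with the inhibitor and 30.1, 39.5 and 38.8 untreated. The ligand arrays were above all others, and the call was for ligand against inhibitor, at 0.83 ± 0.21 (adjusted p = 0.00408). Its neighbours on chromosome 17, Psmb9 and the peptide transporter Tap1, were called nowhere as reported. Tap1 gained a call against untreated without inhibitor replicate 1 (0.60 with the inhibitor).

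Ifi27, which encodes a small protein strongly induced by interferon alpha, had the smallest adjusted p of the members with the inhibitor. Its signals were 324, 339 and 336 with the ligand, 974, 942 and 992 with the inhibitor and 224, 185 and 238 untreated. Inhibitor against untreated was 2.09 ± 0.09 (fold 4.27, adjusted p = 5.8e-09), ligand against untreated 0.60 ± 0.09 (adjusted p = 0.0004) and ligand against inhibitor a fold of 0.355 (adjusted p = 2.4e-08). The groups stood apart, and a second probe set gave 2.43 and 1.14 against untreated. Xaf1, an antagonist of the apoptosis inhibitor XIAP, had 52.4, 32.3 and 54.9 with the ligand, 74.0, 209 and 116 with the inhibitor and 27.5, 41.7 and 35.3 untreated, at 1.46 ± 0.28 with the inhibitor (adjusted p = 0.00081). Lgals3bp, a secreted glycoprotein, rose by 0.51 ± 0.09 (adjusted p = 0.0006), and Ifi35 was at 0.26 ± 0.14 (adjusted p = 0.15), called at 0.31 with its probe sets averaged.

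Arrays of a treated group did not read the members evenly. Inhibitor replicate 1 was the lowest of the 3 in 24 of 36 members (66.7%), against 33.2% of all genes, and replicate 2 the highest in 22 (61.1%), against 30.8%. Among the 23 members that rose the shares were 78.3% and 65.2%. The median member stood at −0.15 from the group's mean in replicate 1 and at 0.13 in replicate 2, on the log2 scale. Oasl1 went against this order, with replicate 1 highest. Among the ligand arrays replicate 2 was lowest in 18 members (50%, against 33% of all genes) and replicate 3 highest in 18 (50%, against 40%).

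**Figure D4:**
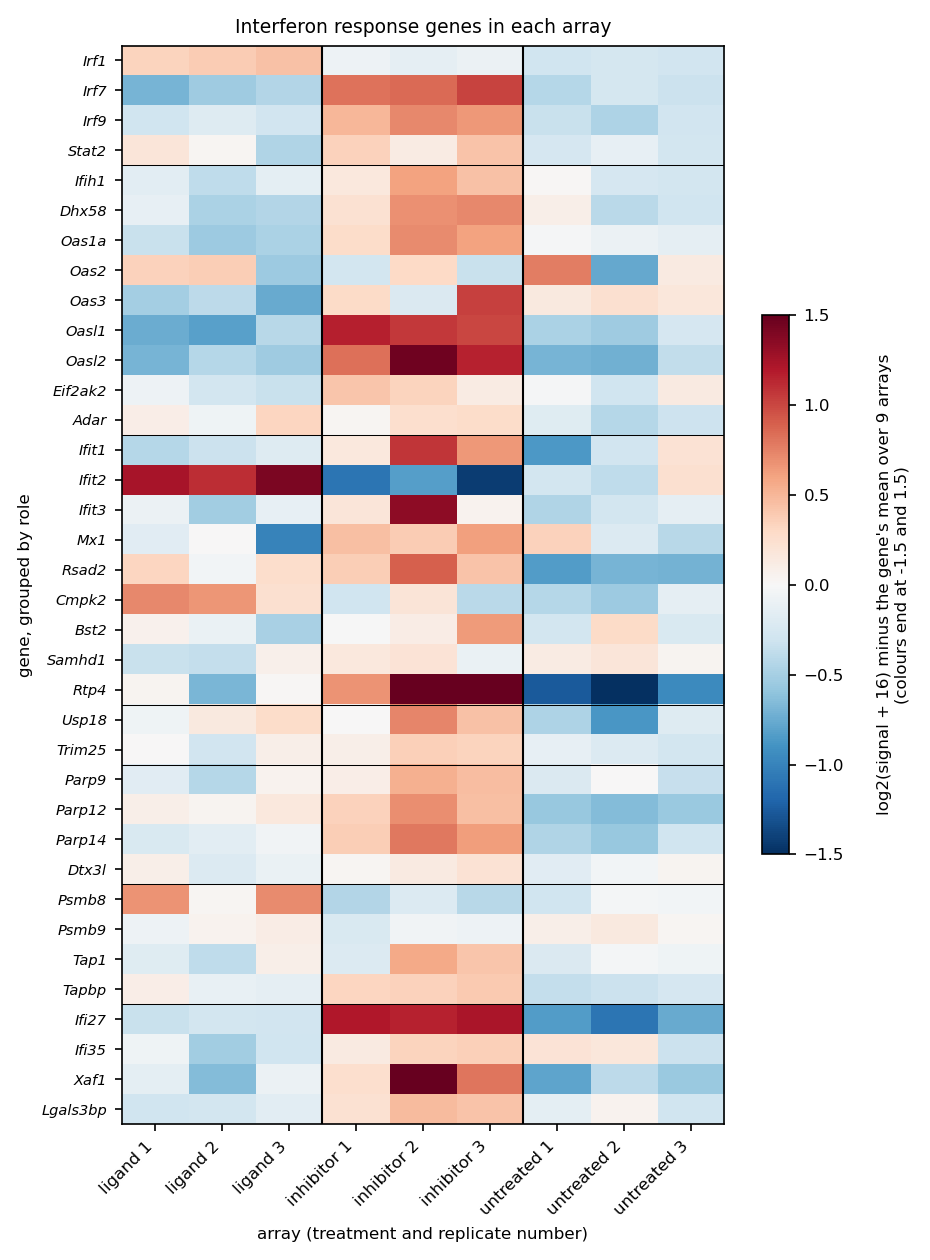
Each row is 1 of the 36 members tested, grouped by role, and each column 1 array, by treatment and replicate number. Colour is log2(signal + 16) minus the gene's mean over the 9 arrays. The inhibitor columns are mostly red, Ifit2, Irf1, Cmpk2 and Psmb8 are reddest in the ligand columns, and inhibitor replicate 1 is paler than replicate 2 in most rows.

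Beyond the members, 86 of 128 listed genes of the pathway could be tested, and 29 rose and 15 fell with the inhibitor (33.7% and 17.4%, against 21.1% and 23.9% of all genes). With the ligand 11 rose and 6 fell (12.8% and 6.98%), both shares a little under the 14.7% and 9.28% of all genes. Of 11 interferon genes listed, 6 had a probe set of their own and 1, Ifnb1, was bright enough to test. Ifnb1 averaged 28.0 ± 2.59 with the ligand, 31.4 ± 7.52 with the inhibitor and 30.1 ± 1.72 untreated (SD, n = 3 each). These values lay at about the filter level, and Ifnb1 was not called. The type III interferon genes Ifnl2 and Ifnl3 had no probe set of their own, so their expression was not read.

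Receptors and their kinases rose in 7 of 9 with the inhibitor (77.8%, against 21.1% of all genes). The type I receptor chain Ifnar2 averaged 263 ± 18.7 with the ligand, 351 ± 25.2 with the inhibitor and 217 ± 10.2 untreated, and rose by 0.65 ± 0.09 with the inhibitor (adjusted p = 7.3e-05), beside Ifnar1 at 0.34 ± 0.11 (adjusted p = 0.0266). Both type III receptor chains rose, Ifnlr1 by 0.41 ± 0.11 and Il10rb by 0.54 ± 0.07. So did Ifngr1 of the type II receptor, at 0.45 ± 0.08, and the kinases Jak2 and Tyk2, at 0.30 and 0.37. Ifngr2 (0.18 ± 0.13) and Jak1 (0.13 ± 0.07) were not called. With the ligand 1 of the 9, Jak2, was lower than untreated (−0.21 ± 0.06), and against the inhibitor 7 of the 9 were lower (22.9% of all genes).

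On the list of negative regulators 4 of 6 were lower with the inhibitor and 0 higher, where 23.9% and 21.1% of all genes were. Usp18, a member described above that also damps signalling, rose. The feedback inhibitor Socs3 averaged 188 ± 39.0 with the ligand, 216 ± 24.8 with the inhibitor and 303 ± 33.1 untreated, so it was lower with both treatments (−0.66 ± 0.14 for the ligand and −0.46 ± 0.14 for the inhibitor). The phosphatase Ptpn2 stood at −0.44 ± 0.07, and the repressor partners of Irf2, Irf2bp1 and Irf2bp2, at −0.38 and −0.24. Socs1 was under the filter level. Of the other STAT and IRF genes, Stat3 rose by 0.61 ± 0.09 with the inhibitor, and Irf8 was lower with the ligand (−0.38) and with the inhibitor (−0.26).

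In the sensing pathway 5 of 10 genes rose with the inhibitor (50%, against 21.1% of all genes). Another 2 fell, a share (20%) near the 23.9% of all genes. With the ligand 1 of the 10 rose and 2 fell (10% and 20%, against 14.7% and 9.28% of all genes). Rigi (listed as Ddx58), the RNA sensor RIG-I, rose by 0.56 ± 0.15 (adjusted p = 0.00797) and its adaptor Mavs by 0.29 ± 0.06. Mavs and the TLR3 adaptor Ticam1 were lower with the ligand, at −0.53 ± 0.06 and −0.55 ± 0.09, and Ticam1 rose by 0.63 with the inhibitor. The kinase Ikbke rose by 0.83 ± 0.11 with the inhibitor and Tbk1 by 0.22 ± 0.07. The DNA sensor Cgas (−0.52 ± 0.10) and the adaptor Myd88 (−0.35 ± 0.09) fell with the inhibitor. Sting1, which acts downstream of Cgas, rose with the ligand by 1.02 ± 0.18.

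**Figure D5:**
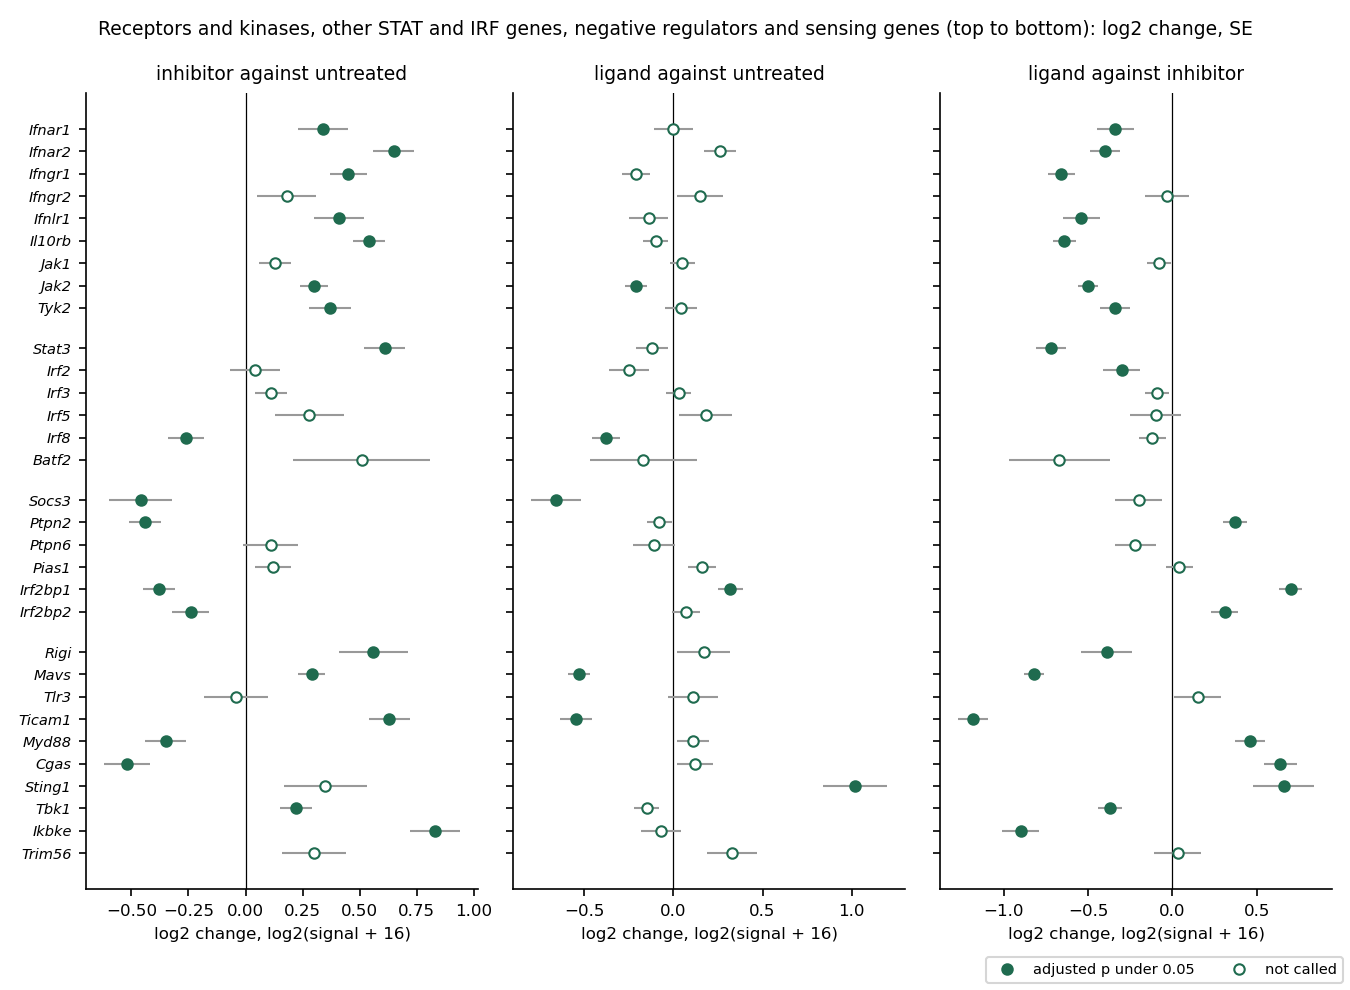
Log2 change with its standard error (horizontal axes, log2(signal + 16)) of receptors and kinases, other STAT and IRF genes, negative regulators and sensing genes, from top to bottom, in the 3 comparisons. Filled points have an adjusted p under 0.05. With the inhibitor 7 of 9 receptors and kinases are filled and to the right, and 4 of 6 negative regulators filled and to the left.

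Of 12 MHC genes 3 were higher and 2 lower with the inhibitor (25% and 16.7%), shares near those of all genes (21.1% and 23.9%), and none was called with the ligand. The class I gene H2-D1 rose by 0.70 ± 0.08 and the class II gene H2-Ab1 by 1.58 ± 0.26 with the inhibitor. The median gene of this list stood at 0.09 there and the lowest at −0.41. B2m, the light chain of class I, averaged 5826 with the ligand, 7199 with the inhibitor and 6511 untreated (0.15 ± 0.10 for the inhibitor, adjusted p = 0.245).

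Other interferon-stimulated genes rose in 13 of 42 with the inhibitor and fell in 6 (31% and 14.3%, against 21.1% and 23.9% of all genes). With the ligand 9 rose and 1 fell (21.4% and 2.38%, against 14.7% and 9.28%). The membrane protein Ifitm3, which blocks virus entry, was the extreme in the falling direction: it averaged 5269 ± 553 with the ligand, 595 ± 53.0 with the inhibitor and 3088 ± 358 untreated (SD, n = 3 each). Its values were −2.34 ± 0.10 for the inhibitor and 0.77 ± 0.10 for the ligand. Tnfsf10 (TRAIL), a death ligand, fell with the inhibitor (−1.91 ± 0.21), and Ifitm2 too (−0.62 ± 0.08). In the other direction, Casp4, the inflammatory caspase, was higher with the inhibitor (1.14 ± 0.09) and lower with the ligand (−0.47 ± 0.09). The ligand's largest rise on this list was in the GTPase Ifi47, at 1.32 ± 0.21.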

How the data were processed

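Per the labels' protocols, RNA was extracted with the miRNeasy kit and amplified and biotin-labelled with MessageAmp Premier. Signals were made with MAS5, per the submitters' processing notes, which give no version. The authors deposited linear intensities, 1 signal per probe set and array, in 1 table for the 9 arrays. MAS5 subtracts mismatch signal, which leaves dim probe sets noisy. The trimmed mean was 350 on each array, so differences in total RNA are not seen. Medians were 46.1 to 57.91, and correlations between arrays of a group 0.9887 to 0.993; the number of arrays limits the precision.

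Of 45101 probe sets, 34945 had 1 gene symbol in the platform annotation, 932 several and 9160 none, and 64 control probe sets were left out; probe sets with several symbols named no gene. Signals were turned into log2(signal + 16); 28.9% of values were at or below 16. Genes were kept if above the array's 40th percentile (25.9 to 32.04, the filter level) on at least 3 of 9 arrays, with the brightest probe set per gene. limma 3.58.1 in R 4.3.3 fitted 1 model with a mean per group (6 residual degrees of freedom, trended variance, 2-sided tests, Benjamini-Hochberg over 12941 genes, threshold 0.05). A gene rose, fell or was called where its adjusted p was under that threshold. Control probes were compared with an exact permutation test, and the pipeline was tested on simulated data. Promoters are from RefSeq (GRCm38.p6).

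The members, the pathway and marker lists and the tests were chosen with earlier results of these data known. Array values are given for members called in at least 1 comparison with a log2 change of at least 0.8 and for 10 core genes; pathway genes were fixed receptors and regulators plus up to 6 called genes of smallest p per list. Alternatives changed the offset, filter, scaling, probe set rule, variance trend, samples fitted and replicate block, or left out each array.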

Additional observations from a re-analysis of the deposited data

How the results depend on the processing

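Some calls held under every alternative that left the gene testable. These were 18 of 24 for inhibitor against untreated, 6 of 10 for ligand against untreated and 21 of 27 for ligand against inhibitor. Members called higher with the inhibitor numbered 18 to 24 over 18 alternatives and members lower 1 throughout; members higher with the ligand against untreated numbered 6 to 10, and members lower for ligand against inhibitor 18 to 28. The count lower with the ligand against untreated, 1, became 3 with quantile normalization, 4 with median centring and 2 with a fit of 2 groups, and 0 to 3 when single arrays were left out (0 without ligand replicate 2 or untreated replicate 1 or 2, 3 without ligand replicate 3, 2 without untreated replicate 3). The count higher for ligand against inhibitor, 4, became 2 with a filter at the 60th percentile. Every one of the 36 members was followed through each alternative that left it testable. Of the called members only Samhd1 turned sign, to 0.12 for ligand against inhibitor with the mean of probe sets. Uncalled members that turned sign lay mostly near 0. With the inhibitor against untreated they were Samhd1 (0.01 with median centring, −0.09 to 0.06 over arrays left out singly), Oas2 (−0.56 to 0.21 over arrays left out) and Oas3 (−0.15 to 0.47). With the ligand against untreated, quantile normalization and median centring gave −0.02 and −0.01 for Irf9, −0.05 and −0.10 for Oas2, −0.06 and −0.07 for Oasl2, −0.04 and −0.07 for Ifit3, and −0.04 and −0.11 for Parp9. The mean of probe sets gave −0.02 for Stat2, 0.01 for Samhd1, 0.09 for Dtx3l and −0.09 for Xaf1, an offset of 64 gave −0.01 for Oas2, and an offset of 1 gave 0.01 for Ifit1. Over arrays left out singly the ligand value ran from −0.11 to 0.04 for Ifih1, −0.25 to 0.00 for Dhx58, −0.40 to 0.37 for Oas2, −0.02 to 0.16 for Oasl2, −0.28 to 0.26 for Ifit1, −0.04 to 0.18 for Ifit3, −0.49 to 0.02 for Mx1, −0.22 to 0.08 for Bst2, −0.11 to 0.13 for Parp9, −0.09 to 0.05 for Dtx3l and −0.18 to 0.05 for Tap1. For ligand against inhibitor they were Adar (0.07 with the mean of probe sets, −0.17 to 0.02 over arrays left out) and Psmb9 (−0.04 with quantile normalization, −0.01 with median centring). Calls were gained 7 times with the inhibitor against untreated (Irf1, Dtx3l, Ifi35, Mx1 at 0.80 without untreated replicate 1, and Tap1 at 0.60 without inhibitor replicate 1). They were gained 13 times with the ligand against untreated (Irf7, Oas3, Psmb8 at 0.82 without ligand replicate 2 among others, Samhd1 at −0.46 and Oasl1 at −0.36 without ligand replicate 3 among others, and Ifi35 at −0.48 without untreated replicate 3), and 18 times for ligand against inhibitor (Stat2, Tap1, Rsad2, Dtx3l and Bst2). The cause of these moves was not tested. With median centring 36.6% of calls over all genes were higher where the ligand was set against untreated, and 41.8% where it was set against the inhibitor (61.3% and 58.6% as reported), and the median gene stood at −0.06 and −0.09 (0.05 and 0.07 as reported). Relative to the median gene, the median member stood at 0.57, −0.02 and −0.60 in the 3 comparisons. Deviations of same-numbered replicates correlated at −0.0769 to 0.0817 in 9 pairs, a range like the −0.0828 to 0.0899 in 18 pairs of different numbers. Whether same-numbered cultures shared a preparation is not stated. With the replicate block, 23 members rose and 1 fell with the inhibitor, 9 rose and 1 fell with the ligand, and 4 were higher and 23 lower for ligand against inhibitor. Signals near background set the limit: 10 of the 36 members passed the filter on 3 to 8 arrays only.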
